A study of Drosophila melanogaster with 2 samples.

Results

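Castor peaks deep in introns were taken from a chromatin immunoprecipitation and sequencing (ChIP-seq) study of castor (cas) in whole Drosophila melanogaster embryos. A peak of the conservative list was counted as a member when its summit lay more than 1 kb from every transcript start of the Ensembl annotation, inside a gene body and in no annotated exon. This rule gave 355 members of 1879 peaks on the chromosome arms (18.9%, 95% Wilson interval 17.2 to 20.7). Another 1374 peaks (73.1%) lay within 1 kb of a start and are called near-start peaks, 117 (6.23%) were intergenic and over 1 kb from every start, and 33 (1.76%) were in exons over 1 kb from every start. The same rule met 213 peaks in the list of replicate 1 alone and 183 in that of replicate 2. Chromatin came from 1 group of embryos, collected from 0 to 24 hours in a transgenic cas-GFP strain whose castor protein is fused to eGFP, in 2 biological replicates. The description says that an antibody to GFP was used, whereas the antibody field names cas, and chromatin was sheared to between 200 and 800 bp. The regulatory DNA that drives the fusion, the sex of the embryos and the number of embryos per replicate are not given in the labels, and untagged embryos or input were not analysed here.

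Castor is a zinc-finger transcription factor that neuroblasts, the stem cells of the embryonic nerve cord, produce late in their series of temporal factors, and it is also made in other embryonic tissues. Introns of fly genes, the first above all, hold many of the enhancers that switch genes on in particular tissues, whereas the DNA beside a transcript start holds the core promoter. The chromatin of whole embryos mixes every tissue and age in the collection, so that a peak seen in few cells cannot be told apart from weak occupancy in many. The lists give no read totals, so the depth behind the peaks is unknown. Peaks and genes are not independent replicates, and intervals cover counting error only.

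The 6 strongest members that are shown here (RefSeq genome of the dm6 assembly, plus strand, 50 bases on each side of the summit) had little G and C and carried runs of A and T, which are in capitals where they reach 6 bases or more.
CG11050, chr2L:6612661-6612761: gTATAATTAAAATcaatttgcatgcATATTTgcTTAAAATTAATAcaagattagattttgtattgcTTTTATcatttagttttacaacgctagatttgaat
CG32772, chrX:4910321-4910421: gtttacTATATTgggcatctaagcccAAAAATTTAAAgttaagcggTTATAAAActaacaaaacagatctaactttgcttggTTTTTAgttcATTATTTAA
Tlk, chrX:3742178-3742278: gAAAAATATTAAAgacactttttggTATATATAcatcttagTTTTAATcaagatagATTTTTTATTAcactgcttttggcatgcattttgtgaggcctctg
Trl, chr3L:14759449-14759549: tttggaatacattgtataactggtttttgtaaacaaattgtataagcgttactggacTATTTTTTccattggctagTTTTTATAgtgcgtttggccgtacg
norpA, chrX:4324937-4325037: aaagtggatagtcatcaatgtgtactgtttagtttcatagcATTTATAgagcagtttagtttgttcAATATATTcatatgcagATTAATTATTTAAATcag
CG3726, chrX:5918877-5918977: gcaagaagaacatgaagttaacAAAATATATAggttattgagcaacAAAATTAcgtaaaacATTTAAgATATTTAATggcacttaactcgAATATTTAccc
They held between 2 such runs (Trl) and 5 (CG32772 and CG3726). G and C made up 21.8% of the CG11050 window, 33.7% of the Trl window and 26.7% to 28.7% of the other 4.

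The word TATTAA led the comparison of member centres with their flanks that is described further on. It stood once in the Tlk window above and once, as its reverse complement, in the CG11050 window. Printed windows were not drawn from every peak, so stronger peaks with a given word may be missing here. A further member with TATTAA lay in Mekk1, where the word is in capitals as its reverse complement.
Mekk1, chr3R:18741720-18741820: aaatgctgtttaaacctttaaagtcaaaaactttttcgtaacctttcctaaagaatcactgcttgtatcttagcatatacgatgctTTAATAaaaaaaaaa
The E-box CATATG, a site class bound by basic helix-loop-helix factors, stood once in the norpA window above and in the windows of eff, Gug and Moe. Those of eff, Gug and Moe were chosen after their values were seen, among the stronger members that hold the word.
eff, chr3R:14738624-14738724: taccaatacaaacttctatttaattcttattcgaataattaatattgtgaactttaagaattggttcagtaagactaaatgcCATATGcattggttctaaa
Gug, chr3L:8458262-8458362: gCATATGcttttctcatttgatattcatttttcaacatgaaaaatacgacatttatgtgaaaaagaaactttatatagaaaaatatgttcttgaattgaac
Moe, chrX:8896219-8896319: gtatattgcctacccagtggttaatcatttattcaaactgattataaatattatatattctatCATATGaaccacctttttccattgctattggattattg
For contrast, the word CGATAG was held by none of the 335 member centres compared, 1 per cluster, and by 2 of all 355 members (0.563%). Strong near-start peaks that hold it lay beside the starts of Chro, which encodes an interband chromatin protein, and MFS10. The word or its reverse complement is in capitals.
Chro, chr3L:22878832-22878932: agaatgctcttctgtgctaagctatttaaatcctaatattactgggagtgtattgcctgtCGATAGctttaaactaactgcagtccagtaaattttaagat
MFS10, chrX:13131311-13131411: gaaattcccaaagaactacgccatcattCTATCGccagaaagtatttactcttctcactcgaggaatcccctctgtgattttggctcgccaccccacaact

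Signal, the authors' own measure of the height of a peak, set the order of the members, and each replicate value was read in the ranked list of that replicate alone. The strongest member lay in CG11050 at chr2L:6612532-6612878, with signal 1218, and reached 629 in replicate 1 and 578 in replicate 2. Its summit was 1024 bp from the start of CG11050 and 69 bp from an exon, in an intron of 140 bp, so the name deep intronic holds for it only by the rule. The second, in CG32772 on X, had signal 589, with 239 in replicate 1 and 341 in replicate 2. Tlk, which encodes the chromatin-associated Tousled-like kinase, held the third, with signal 475 and replicate values of 254 and 221. Trl, the gene of GAGA factor, a DNA-binding protein of the trithorax group, held the fourth, with signal 464 and replicate values of 243 and 215. In norpA, which encodes the phospholipase C of phototransduction, a member had signal 435 and replicate values of 231 and 208. In each replicate these 5 lay above every other member, though in a different order.

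Several further hosts encode kinases, a grouping noticed after the values were seen and not tested. Mekk1, a stress-activated kinase of the MAP kinase cascade, had a member of signal 216, and Csk, which holds Src-family kinases in check, had one of 204. The cGMP-dependent kinase gene for had one of 202, 1149 bp from its start, and the Tec-family kinase gene Btk one of 186. A further Tlk member, elsewhere in the same 60007 bp intron, had signal 181. Transcription and RNA regulators were among the 20 strongest as well. NFAT, which encodes a transcription factor of the NFAT family, had a member of 282, and the ecdysone-induced nuclear receptor gene Hr3 one of 208 that also lay inside CG12912 and CG46321. Tis11, whose zinc-finger protein promotes decay of messenger RNA, had one of 191, and simj, which encodes the p66 subunit of the NuRD chromatin remodelling complex, one of 162. The glycosyltransferase gene egh had one of 199.7. The remaining members of the 20 lay in CG3726 (signal 363), CG12769 (306), CG9837 (304), CG34417 (188) and CG32425 (178). Of these 20, 18 lay in a first intron, 15 within 2 kb of a start and 9 on X, and all 20 overlapped a thresholded peak of both replicates.

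Over all members, signal had a median of 72.3 and quartiles of 59.0 and 100.4, with a lowest value of 2.17. Most of the lowest values belonged to entries beside a stronger one. Of 20 pairs of members with summits under 500 bp apart, 16 pairs overlapped, with summits 199 to 243 bp apart, and within each overlapping pair the scores differed by at most 2 of 1000. In these 16 pairs the stronger member had a signal between 44.8 and 162 and the weaker one between 2.17 and 33.7. In CHES-1-like, for example, the pair had signals of 117 and 2.40. Of the 14 members with a signal under 20, 13 were the weaker entry of such a pair. Sequence comparisons therefore used 1 member per cluster, the strongest, which left 335. The tests of signal, replicate lists, position and arms kept all 355, so the weaker entries of these pairs count there as members.

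In the ranked list of replicate 1, 353 members overlapped an entry, and in that of replicate 2, 354 did. For the 352 with an entry in both, the median signal was 37.8 in replicate 1 and 35.8 in replicate 2. Replicate 1 was higher for 195 of them, and on the log2 scale the median difference, replicate 1 minus replicate 2, was 0.08 (SD 0.49). For the 20 strongest the SD was 0.33, and replicate 1 was higher for 12. Over the 352 members, which share the same 2 libraries and of which the paired entries share values, the signals had a Spearman rho of 0.50 and a Pearson r of 0.73 on the log2 scale.

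**Figure D1:**
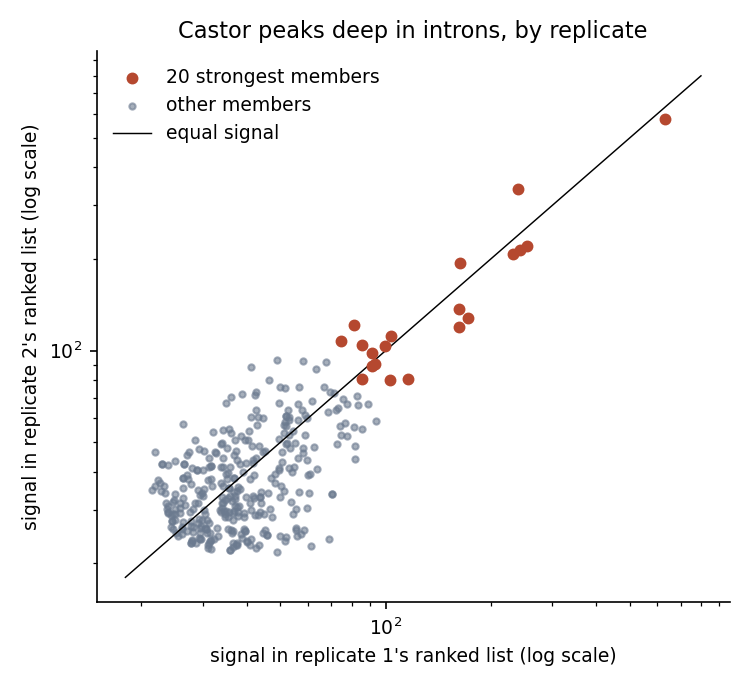
Signal of each of the 352 members in replicate 1's ranked list (x axis, log scale) and replicate 2's (y axis, log scale), each point a member, with the 20 strongest members in red and a line of equal signal. The strongest member lies at 629 and 578, apart from the rest, while most members lie in a cloud around medians of 37.8 and 35.8.

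Members were weaker than near-start peaks. A signal above the median of all arm peaks (77.3) was found for 151 of 355 members (42.5%, Wilson interval 37.5 to 47.7), against 729 of 1374 near-start peaks (53.1%, 50.4 to 55.7), a difference with p = 0.000437 in Fisher's exact test (two-sided). The member share did not differ detectably from that of intergenic peaks, of which 46 of 117 lay above the median (39.3%, 30.9 to 48.4, p = 0.589, Fisher's exact test). Medians were 72.3 for members, 71.4 for intergenic peaks and 81.2 for near-start peaks. At the upper end, 13 members (3.66%) and 127 near-start peaks (9.24%) exceeded a signal of 200. In the list of replicate 2 alone the difference from near-start peaks no longer passed (44.8% against 52.2%, p = 0.0741, Fisher's exact test).

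Members were also found less often in both replicates' own thresholded lists. Of the 355, 119 overlapped a peak of both (33.5%, Wilson interval 28.8 to 38.6), 67 only one of replicate 1, and 52 only one of replicate 2, which left 117 (33.0%) in neither list. Among near-start peaks 609 of 1374 (44.3%, 41.7 to 47.0) overlapped a peak of both (p = 0.000232, Fisher's exact test, two-sided) and 24.3% of neither. Intergenic peaks had 34 of 117 in both (29.1%, 21.6 to 37.8) and 34.2% in neither, and their difference from members was not tested. The members in both lists had a median signal of 115.6, and those in neither 57.8, so the shares moved with signal.

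**Figure D2:**
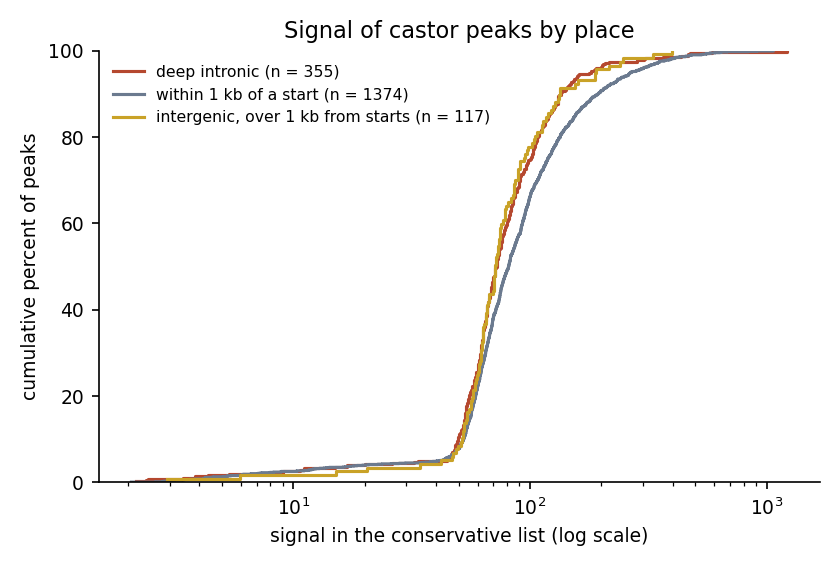
Cumulative percent of peaks (y axis) by signal in the conservative list (x axis, log scale) for deep intronic, near-start and intergenic peaks, each line a group. Members and intergenic peaks have medians of 72.3 and 71.4, and the line of members lies left of near-start peaks, whose median is 81.2, over most of its course.

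Beyond the 1 kb limit, the density of summits fell with distance from transcript starts. The rule cuts on this same distance, and 73.1% of all arm peaks lay within the limit. The distance bins therefore describe the members and cannot set them apart from near-start peaks. The median distance from the nearest start was 2976 bp, with quartiles of 1673.5 and 5787.5 bp and a largest value of 42257 bp. Bases that meet the same positional rule amount to 43.95 Mb, so that members came at 8.08 per Mb, and these bases were the expectation. None were left out for how well reads can be placed on them, and 1738 kb in Myo81F and 0.926 Mb on Y are included. The part of such bases in the comparisons by distance, intron length and arm was not tested. Between 1 and 2 kb lay 125 members (35.2%) against 17.5% of bases, a 2.01-fold excess (adjusted p = 8.13e-15, exact two-sided binomial test over 4 distance bins). From 2 to 5 kb there were 127 (35.8% against 30.9%, adjusted p = 0.0508 by the exact test). Fewer than their share lay from 5 to 10 kb, with 67 members (18.9% against 24.9%, adjusted p = 0.011, exact test), and beyond 10 kb, with 36 (10.1% against 26.7%, adjusted p = 3.05e-14, exact test). Median signal was 80.6 in the nearest bin and 70.8, 68.7 and 69.0 in the following bins. On either side of the 1 kb limit, the 18 members at 1000 to 1100 bp had signals from 7.73 to 1218 with a median of 88.1. The 26 intronic peaks at 900 to 1000 bp had signals from 5.85 to 412 with a median of 78.7.

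First introns held most members. A summit lay in the first intron of some transcript for 247 of 355 members (69.6%, Wilson interval 64.6 to 74.1) against 41.2% of bases, a 1.69-fold excess (p = 4.70e-27, exact two-sided binomial test). First introns lie near starts, so the shares were also compared within each distance bin, a comparison chosen after the data were seen. They were 80.8% against 57.7% of bases at 1 to 2 kb, 68.5% against 48.9% at 2 to 5 kb, 61.2% against 38.8% at 5 to 10 kb and 18 of 36 against 23.5% beyond, each with an adjusted p of at most 0.000554 in the exact binomial test. The first-intron members had a median signal of 73.8 and the 108 others 67.5. In tsr, which encodes cofilin, the first intron is 1483 bp long and its member, with signal 147, lay 1436 bp from the start.

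By length, introns of 5 to 20 kb held 159 members (44.8% against 32.2% of bases, adjusted p = 1.33e-06, exact binomial test over 3 length bins). Introns over 20 kb held 117 (33.0% against 48.2%, adjusted p = 2.30e-08, exact test), and those under 5 kb held 79 (22.3% against 19.7%, adjusted p = 0.229, exact test). Where transcripts give a summit several introns, the longest was taken. The median intron was 13341 bp long, and the median distance to the nearest exon was 1644 bp. The nearest start belonged to a gene that holds the member for 247 members (69.6%). No member lay within 1000 bp of a transcript start of the RefSeq annotation either, and none lay in an annotated mobile element. Repeats marked in the reference held 84 summits (23.7%) against 20.4% of bases (p = 0.147, exact binomial test).

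**Figure D3:**
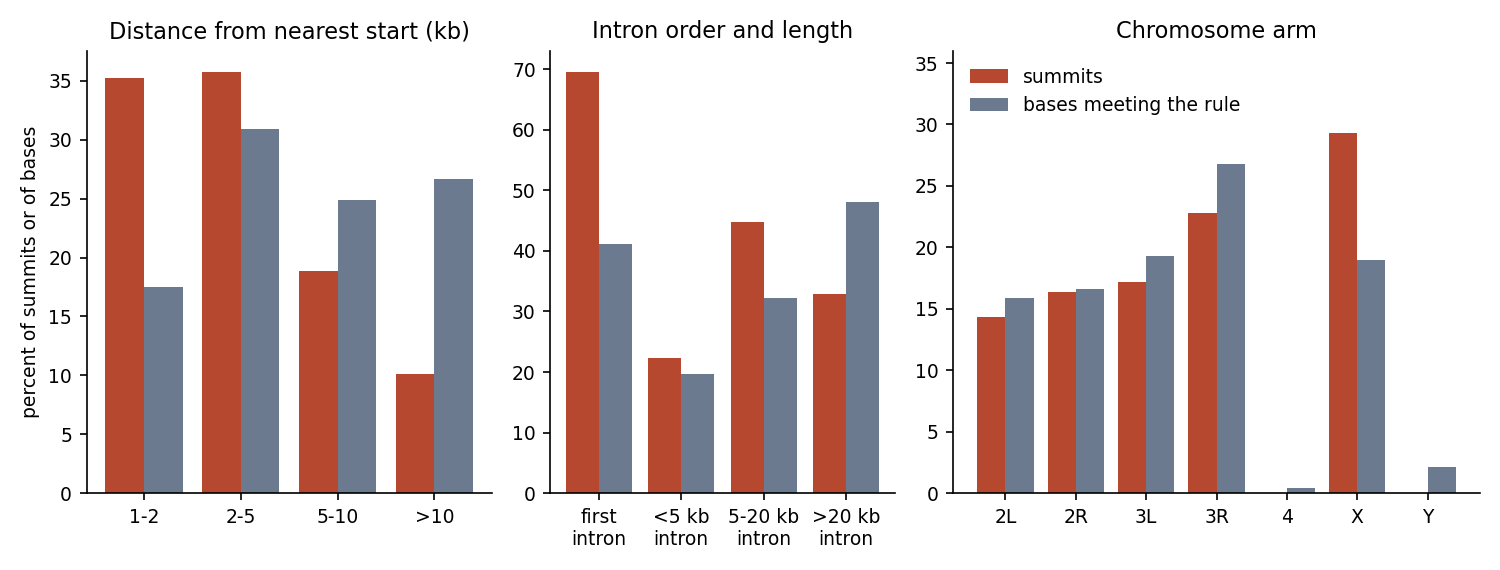
Percent of member summits (red) and of bases that meet the positional rule (grey), on linear y axes from 0, by distance from the nearest start, by intron order and length, and by chromosome arm. Summits exceed bases at 1 to 2 kb (35.2% against 17.5%), in first introns (69.6% against 41.2%) and on X (29.3% against 19.0%).

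The X chromosome held more members than its share. On X lay 104 members (29.3%) against 19.0% of bases, or 12.5 per Mb, a 1.54-fold excess (adjusted p = 1.86e-05, exact two-sided binomial test over 7 arms). The large autosomal arms had between 6.89 per Mb (3R) and 7.94 per Mb (2R), and none of them passed (adjusted p from 0.246 to 0.943, exact test). The Y held 0 against 7.48 expected (adjusted p = 0.00413, exact test), a call that was lost without either replicate, and the small arm 4 held 0 against 1.37. Of near-start peaks 221 of 1374 (16.1%) lay on X, a lower share than that of members with adjusted p = 3.48e-07 (Fisher's exact test over 7 arms, chosen after the data were seen). The share of all transcript starts on X was not computed, so how far this difference follows the layout of genes was not tested. Entries of the combined ranked list that met the rule and overlapped no peak of the conservative list had 19.4% of 31363 on X. They are called ranked intron entries that did not become peaks, but were not checked against the other thresholded lists.

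The X share of members lay above that of the bases in each distance class, and passed in 2 of the 4. Shares on X were 24.8% against 20.1% of bases at 1 to 2 kb (adjusted p = 0.219, exact binomial test over 4 bins), 33.1% against 20.7% at 2 to 5 kb (adjusted p = 0.00529, exact test), 28.4% against 19.7% at 5 to 10 kb (adjusted p = 0.12, exact test) and 33.3% against 15.7% beyond (adjusted p = 0.018, exact test). In first introns 29.6% lay on X against 21.0% of bases (adjusted p = 0.00338, exact test over 2 classes) and in later introns 28.7% against 17.6% (adjusted p = 0.00497, exact test). Median signal was 70.9 for the members on X and 72.4 for the 251 elsewhere. In each replicate's own list the same rule gave X 59 of 213 peaks in replicate 1 (27.7%) and 53 of 183 in replicate 2 (29.0%).

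Member DNA was poor in G and C at the summit. The centres, the windows of 50 bases on each side, averaged 32.6% ± 8.72 (SD over 335 members), against 41.1% ± 8.83 in windows 500 bp to the side and 40.0% over all bases that meet the rule. The centre was lower than its flank for 255 of 323 members without a tie (78.9%, p = 1.35e-26, exact two-sided sign test). Near-start centres averaged 35.2% ± 10.7 (1301 windows), intergenic ones 34.1% ± 9.41 and ranked intron entries that did not become peaks 44.5% ± 8.49 (23465 windows). Below the joint median of members and near-start peaks lay 56.4% of members and 46.7% of near-start centres (p = 0.00175, Fisher's exact test). The longest run of A and T had a median of 10 bp in member centres and in near-start centres, 8 bp in member flanks and 7 bp in the entries that did not become peaks. In 51 bp windows the mean G and C of members was 32.3% at the summit, 44.8% and 44.1% at 150 bp to either side, and 39.98% and 40.3% at 1 kb, so that the trough had raised shoulders. Intergenic peaks had a profile of the same shape, with 34.0% at the summit, 43.0% and 43.6% at 150 bp and 40.03% and 40.8% at 1 kb. Near-start peaks had 34.4% at the summit, 41.5% and 41.3% at 150 bp and 44.0% and 44.2% at 1 kb.

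**Figure D4:**
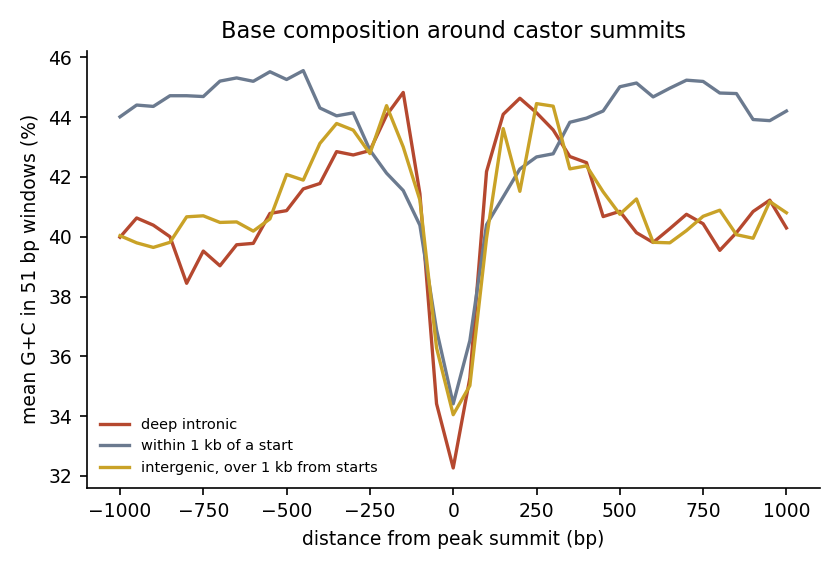
Mean G and C content in 51 bp windows (y axis) by distance from the summit (x axis, in bp) for deep intronic, near-start and intergenic peaks, 1 per cluster, each line a group. The member line falls to 32.3% at the summit from shoulders of 44.8% and 44.1% at 150 bp, whereas the near-start line lies higher than the member line 1 kb away.

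The presence of every word of 6 bases, read on both strands, was counted per window. Against the flanks, 46 words were more frequent in member centres (2.21% of words tested) and 21 less frequent (1.01%). Of the 46, 23 were made of A and T alone, out of 36 such words in all. TATTAA led, in 83 of 335 centres (24.8%) against 25 flanks (7.46%), with 77 members that had it in the centre alone and 19 in the flank alone (adjusted p = 2.53e-06, exact binomial test of these pairs). In 51 bp windows TATTAA was at 12.5% against 4.78% and missed the threshold (adjusted p = 0.0563, exact test). AAAATA followed with 37.9% against 17.6% (adjusted p = 2.53e-06, exact binomial test). Among words with G or C, TTGAAA was at 23.6% of centres against 9.55% of flanks (adjusted p = 0.000333, exact test) and ACTAAA at 14.3% against 3.88% (adjusted p = 0.00053, exact test). ACAACA was less frequent, with 3.88% against 13.4% (adjusted p = 0.00208, exact test). Against ranked intron entries that did not become peaks, 254 words were more frequent (12.2%) and 294 less frequent (14.1%), led by ATATTA with 25.4% against 6.71% (adjusted p = 6.86e-23, Fisher's exact test), and all 46 words of the flank comparison were among the 254. In both directions together, 10 words without replicate 1 and 16 without replicate 2 differed from the flank, and 192 and 293 from the ranked entries. Centres and both kinds of comparison window differed in G and C content, as given above, and its part in these counts was not tested.

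Against near-start peaks few words differed. Near-start centres also differed from member centres in G and C content, as given above, and its part in these words was not tested. No word was more frequent in members (0%) and 3 were less frequent (0.144%) by Fisher's exact test with adjustment, while 74 were more and 97 less frequent at an unadjusted p under 0.05. In other settings some words were more frequent in members, namely 1 of 5 that passed in the pooled list, 3 of 7 with a start limit of 500 bp and 1 of 3 with a limit of 2 kb. CGATAG stood in 0 of 335 member centres, which allows a share of up to 0.896%, against 117 of 1301 near-start centres (8.99%, adjusted p = 2.01e-09, Fisher's exact test). ATCGAT was at 1.49% against 8.61% (adjusted p = 0.000594, Fisher's exact test) and CAGGGC at 0.299% against 4.84% (adjusted p = 0.00685, Fisher's exact test). Without replicate 2, CGATAG was at 0.971% against 5.02% and did not pass (adjusted p = 0.778, Fisher's exact test), and the number of words that passed was 1 without replicate 1 and 0 without replicate 2. ATCGAT lies within TATCGATA, the DNA replication-related element (DRE) that the factor DREF binds at promoters, and CGATAG shares the letters CGATA with it. Over all peaks, CGATAG was at 18.6% of the 506 centres within 100 bp of a start, 3.61% of the 609 from 100 to 500 bp and 0.543% of the 184 from 500 bp to 1 kb. It was in none of the deep intronic centres among them, of which 116 lay at 1 to 2 kb, 120 at 2 to 5 kb and 95 beyond. TATTAA was at 17.0%, 27.8% and 17.9% in the same 3 distance classes and at 28.4%, 23.3% and 22.1% of the 3 deep intronic classes, so that its share at 100 to 500 bp from a start lay within the range of the deep intronic classes.

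Binding words were compared as a set of 20, with both strands read. They were chosen with earlier results of these data known, which the adjustment over 20 words does not cover. Most are known sites, but ATCGAA is in the set only as a word that overlaps TATCGA. Only TATAAA, the TATA box, differed from the flank, in 26.0% of member centres against 10.7% (adjusted p = 7.45e-06, exact binomial test). TATAAA is also among the words of A and T alone that passed against the flank above, so it is no separate result. The part of the lower G and C content of the centres in it was not tested. With the flank taken on the other side its share was 16.4%, and TATAAA did not pass (adjusted p = 0.0643, exact test). Against near-start centres TATAAA was at 26.0% and 22.6% (adjusted p = 0.351, Fisher's exact test). Of the promoter words, TATCGATA was at 0% of members, which allows up to 0.896%, against 3.54% of near-start centres (adjusted p = 0.000453), TATCGA at 4.48% against 11.1% (adjusted p = 0.000789), CGATA, the core of BEAF-32 sites, at 10.1% against 20.1% (adjusted p = 0.000296) and CATCNCTA, core promoter motif 7, at 0.299% against 3.61% (adjusted p = 0.00186), all by Fisher's exact test and each lower in members. TATCGA, TATCGATA and CGATA overlap one another and share letters with CGATAG and ATCGAT, so they are not separate results.

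Of the 20 words, CATATG was the only one that passed the test as more frequent in members than at near-start peaks, in 24 of 335 centres (7.16%, Wilson interval 4.86 to 10.4) against 42 of 1301 (3.23%, adjusted p = 0.0105, Fisher's exact test). CATATG was at 3.12% of ranked intron entries that did not become peaks and at 2.69% of flanks. The G and C content of all 3 kinds of comparison window differed from that of member centres, and its part in these shares was not tested. By distance, it was at 1.78% of centres within 100 bp of a start, 4.11% from 100 to 500 bp and 4.35% from 500 bp to 1 kb, and at 7.76% of deep intronic centres from 1 to 2 kb, 4.17% from 2 to 5 kb and 10.5% beyond. The lowest share was thus that within 100 bp of a start, and the deep intronic share from 2 to 5 kb was close to those from 100 bp to 1 kb. Against the flanks it did not pass (adjusted p = 0.135, exact binomial test), and among all words of 6 bases its adjusted p against near-start peaks was 0.227 (Fisher's exact test). It no longer passed in either replicate's own list (adjusted p = 0.127 without replicate 1 and 0.188 without replicate 2, Fisher's exact test). Among words that did not pass against near-start centres, TTTTTT, an A-tract of the kind Hunchback binds, was at 27.2% against 26.7%, and TAATTA, a homeodomain site, at 11.3% against 9.30% (adjusted p = 0.989 and 0.428, Fisher's exact test). GAGAG, the core bound by GAGA factor, was at 13.1% against 9.07% (adjusted p = 0.0776, Fisher's exact test). A match describes the letters of a window and is not evidence of a bound site, and no match says nothing about a factor.

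Members lay in 284 protein-coding genes, which is 4.18% of the 6800 protein-coding genes with at least 1 base that meets the rule. Without replicate 1 there were 158 such host genes and without replicate 2 there were 183. Of the 355, 349 lay in a protein-coding gene and 6 in genes of non-coding RNA only, and 24 lay in more than 1 gene body. Of the 284 genes, 42 held 2 members, 15 held 3 or more and the others 1. Genes with more room held members more often: the share holding one was 0.128% of the 3901 genes with up to 1 kb of such bases, 4.73% of 1354 with 1 to 5 kb, 11.2% of 956 with 5 to 20 kb and 18.3% of 589 with more. A peak within 1 kb of an own start was present in 76 of the 284 (26.8%) and in 1084 of all 6800 (15.9%). In the 3 classes of genes with over 1 kb of room the shares were 28.1%, 29.0% and 24.1% of genes with a member, against 16.6%, 17.2% and 16.3% of all genes.

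The 7 genes with 4 or more members are named here, since 5 of them tied at 4. The gene with most was sbb, which encodes a nuclear corepressor, with 7 in 6 clusters. They lay 12828 to 21993 bp from the nearest start, all in an intron of 65649 bp, with signals of 145, 107, 104, 90.3, 63.2, 62.3 and 11.1, the last beside the entry of 107. The forkhead factor gene CHES-1-like had 5 in 4 clusters, with signals of 152, 117, 66.7, 62.2 and 2.40, all in first introns of up to 18998 bp, and also 3 peaks near its own starts, the strongest of 140. Tlk had 4 in 4 clusters, with signals of 475, 181, 70.8 and 46.3, and no peak near its own starts. In simj the 4 members, in 3 clusters, had 162, 131, 32.4 and 16.9. CG32264 had 4 of 141, 97.1, 77.4 and 60.6. Socs36E, which encodes a suppressor of cytokine receptor signalling, had 4 in 3 clusters, none above 77.9. PRAS40, a component of insulin and TOR signalling, also had 4 in 3 clusters, from 15.0 to 65.3.

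Gene lists were described by how many genes hold a member and by members per Mb of their bases that meet the rule, beside 7.80 per Mb over all protein-coding genes. That value divides 349 members, each counted once, by 44.7 Mb summed gene by gene, in which bases shared by overlapping genes count more than once. Counting every base once gave the 8.08 per Mb above. In the nervous system, where castor is best known, densities differed between lists, and so did the median room per gene, its bases that meet the rule. That room was 22.3 kb in the temporal series list, 12.6 kb in the asymmetric division list and 13.3 kb in the neuronal identity list. It was 31.2 kb for axon guidance, 20.3 kb for synapse and 1.88 kb for glial genes. The list for the temporal series of neuroblasts had 2 of 8 genes with such bases, for 14.3 members per Mb. They were grh, the last factor of the series, with a member of signal 76.3 (34.8 in replicate 1 and 39.3 in replicate 2), and Antp, with 53.6 and 51.1, both also inside CG46458. Antp is a Hox gene and no factor of the series itself, and it gave 2 of the 3 members of the list. The neuroblast and asymmetric division list had 2 of 10, the spindle orientation gene insc (69.8, also inside sktl) and the apical polarity gene baz (52.4), for 15.8 per Mb. Among regulators of neuronal identity 1 of 22 held a member, zfh1, a zinc-finger homeodomain factor, with 116, at 2.35 per Mb. Axon guidance and adhesion genes had 4 of 30 at 3.82 per Mb: the semaphorin gene Sema1a (72.5 and 2.43, an overlapping pair), the Slit ligand gene sli (64.3), the Netrin receptor gene fra (53.7) and the Netrin gene NetA (45.7). Synapse and excitability genes had 1 of 30, the cAMP phosphodiesterase gene dnc, with 58.2 and 51.9, at 2.12 per Mb. The glial list had 1 of 14, pnt, which encodes an ETS factor, with 75.6 and 61.9, at 27.4 per Mb.

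Signalling lists lay above the value for all genes, as did several lists of other kinds, so this is no trait of signalling genes. Their median room per gene was between 7.88 and 21.9 kb, against 0.579 kb over all genes. Receptor tyrosine kinase and Ras genes had 4 of 22 with 7 members, 24.1 per Mb. These were the kinase gene Raf (157, 122 and 49.7), the secreted inhibitor gene aos (129, also inside CG33158), the ETS repressor gene aop (109) and pnt. The Notch list had 3 of 14, at 17.5 per Mb: the coactivator gene mam (114), the ubiquitin ligase gene neur (96.2) and the receptor gene N (64.8 and 56.2). Wnt, Hedgehog and BMP genes had 4 of 20 at 17.0 per Mb, namely the BMP response factor gene shn (131 and 77.6), the Wnt receptor genes fz (94.7) and arr (90.9 and 60.3) and the BMP ligand gene dpp (53.9). Ecdysone response receptors had 3 of 14 at 14.8 per Mb, Hr3 (208 and 67.9), Hr4 (112, 98.4 and 75.7) and Eip75B (63.3).

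Chromatin lists had little intron sequence and some members in it. Their median room per gene was 0.70 kb for the Polycomb and trithorax list and 0.28 kb for the insulator list. Polycomb and trithorax groups had 4 of 28 genes with 5 members in 0.0995 Mb, or 50.2 per Mb: Trl (464, and 59.2 in a member also inside CG42507), and ph-p (64.4), Psc (53.1) and trx (53.1), which encode subunits or partners of these chromatin complexes. The insulator list had 1 of 15, the histone kinase gene JIL-1 (111), in 0.026 Mb. Elsewhere the small GTPase and cytoskeleton list had tsr, Rab11 (108) and the RhoGAP gene cv-c (68.2), 3 of 19 at 12.5 per Mb, and the cell cycle list E2f1 (66.1), 1 of 17. RNA-binding genes, with a median room of 31.5 kb, had 2 of 23 at 1.56 per Mb. These were the sex-determination splicing gene Sxl (58.9) and the translational repressor gene pum (55.0). Segmentation and Hox genes had 1 of 15, Antp, whose 2 members were counted here again, at 6.37 per Mb. Of lists for other tissues, mesoderm and muscle genes had 2 of 21 at 5.18 per Mb, kirre (136 and 60.5, which also lie in CG32795) and zfh1. Of haemocyte and fat body markers 1 of 9 held members, ush (70.4 and 50.9), at 19.6 per Mb, and of trachea and epidermis markers 2 of 11, shn and grh, at 15.1 per Mb. Gut and salivary gland markers had 0 of 8, but in 0.067 Mb, a length too small to read this as an absence. Ribosomal protein genes had 0 of 3, since few ribosomal protein genes have bases that meet the rule. The lists with a member rest on 1 to 7 each, so their densities are descriptions, and nothing particular to a list was tested. Member density also fell with distance from starts and was lower in introns over 20 kb, as given above. The part of intron length and room in the differences between lists was not tested.

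**Figure D5:**
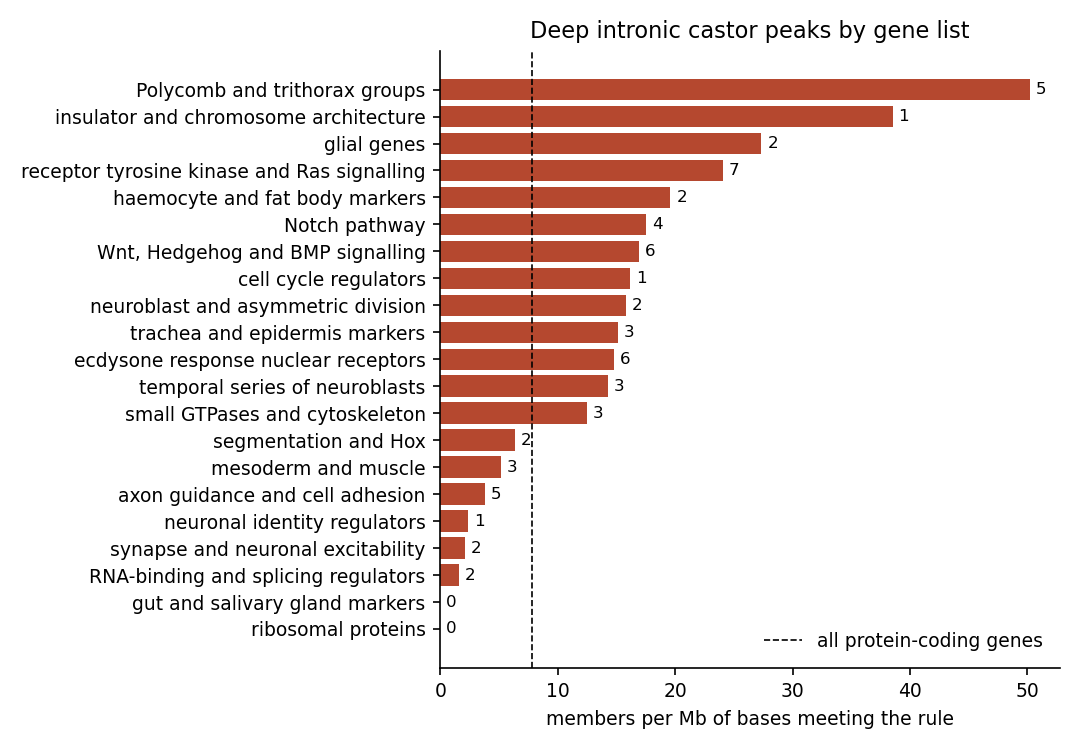
Members per Mb of bases that meet the positional rule (x axis, from 0) for 21 gene lists (y axis), with the number of members at the end of each bar and a dashed line at 7.80 for all protein-coding genes. The Polycomb and trithorax list reaches 50.2 per Mb with 5 members, and the synapse list 2.12 with 2.

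The cas gene itself, at chr3R:5712975-5716805, has 680 bases that meet the rule and held no member.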

How the data were processed

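Castor ChIP-seq was analysed from deposited irreproducible discovery rate (IDR) peak lists on dm6, 1 thresholded and 1 ranked per replicate and combined ones for both, per the deposited README texts. The signal and the scaled IDR score (at most 1000) of each peak are the authors' values, as are the −log10 IDR values of the ranked lists, which were not needed for any result. Signals were compared within 1 list at a time. The other column used, the authors' summit offset, gave each summit. The aligner, the peak caller and their settings were not given in the sources used here. Replicate numbers come from the labels.

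Starts, genes and exons were those of Ensembl release 115 (BDGP 6.54, with the coordinates of dm6), and annotated transposable elements counted as genes. A gene held a member when the summit lay in its body, and where several did, the shortest protein-coding one was named. Summits under 500 bp apart formed a cluster, and windows of 50 bases on each side of the strongest summit were compared with windows 500 bp towards the lower coordinate. Overlaps required 1 bp. Tests were exact binomial and Fisher's exact tests (two-sided), with Benjamini-Hochberg adjustment per family of tests and a limit of 0.05. No test compares conditions. Genes named are hosts of the 20 strongest members, those with most members, up to 4 per list, and cas. The members, lists and words were chosen with earlier results of these data known, and 12 symbols of the lists were found under older names. Alternatives were the pooled list, each replicate's list, score 1000 only, start limits of 500 bp and 2 kb, and other windows, flanks and overlaps. Python 3.11.15, numpy 2.4.6, scipy 1.17.1 and matplotlib 3.10.9 were used.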

Additional observations from a re-analysis of the deposited data

How the results depend on the processing

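Of 124 alternative values for 16 results, 95 were kept. Tested shares were kept when direction and side of the threshold stayed, and counts when they stayed within 1.5 times the value reported. The median log2 difference between replicates, which has no test, was kept when it moved by less than the SD over members. No tested share reversed its direction, whereas counts have no direction that could reverse. A count that was kept can also stand for other arms, as X and Y became 3R and X without replicate 1. The first-intron share, the share at 1 to 2 kb, the lower G and C content at the summit and the X share against near-start peaks kept both under every alternative run for them, the last chosen after the data were seen. With the list of 1 replicate alone, there were 183 (without replicate 1) and 213 (without replicate 2) members in 158 and 183 genes. The share above the median signal was 44.8% and 44.1%, and the first of these no longer passed. Word counts fell to 10 and 16 against the flank, to 1 and 0 against near-start peaks and to 192 and 293 against ranked intron entries. Arms that passed were 2 (3R and X) and 1 (X), and fixed words 1 and 2, GAGAG joining TATAAA without replicate 2. CGATAG did not pass without replicate 2, at 0.971% of members against 5.02% of near-start centres (adjusted p = 0.778, Fisher's exact test).

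A start limit of 2 kb left 230 members in 185 genes, with 29 words against the flank and 281 against ranked entries. A limit of 500 bp gave 148 words against the flank, 7 against near-start peaks (3 of them more frequent in members) and 2 fixed words. A 51 bp window gave 10, 1 and 175 words in the 3 comparisons. Against near-start peaks the pooled list gave 5 words (1 more frequent in members) and peaks of score 1000 gave 1. With the flank on the other side 0 fixed words passed, and 28 of the 46 more frequent words were shared. The causes were not tested. Added after the data were seen, an annotation without transposable elements gave 364 members and leaving out peaks of signal under 10 gave 346. CATATG against near-start peaks lost its call in 3 alternatives, the third a 2 kb limit (adjusted p = 0.168, Fisher's exact test). No paired analysis was possible because the series has 1 group. Unknown depth limits how far weak peaks can be separated from background.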
